A study of Mus musculus with 2 samples.

Results

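The receptors that bind the IL-17 cytokines and the first proteins that carry their signal were followed across the cell types of inflamed mouse skin. The 8 genes were chosen by name from the 31053 genes of the count matrices, not by their values. They are the receptor chains Il17ra, Il17rb, Il17rc, Il17rd and Il17re, the adaptor gene Traf3ip2, and the downstream regulators Nfkbiz and Zc3h12a.

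The data are counts of unique molecular identifiers (UMIs, 1 per captured RNA molecule) per gene and cell from 10x single-cell RNA sequencing. There was 1 library of the dermis and 1 of the epidermis, both from wild type C57BL/6 mice whose age is given as 10 weeks and whose ears received imiquimod (IMQ) for 5 days. IMQ is a Toll-like receptor agonist that induces psoriasiform inflammation, and both libraries carry this treatment, so no untreated skin enters any comparison here. Dermal cells had been sorted as live CD45+ cells and epidermal cells as live cells of any kind, and the number of animals behind each library is not given in the sources used here.

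Of the cells, 4747 dermal and 4173 epidermal ones had at least 200 genes and at most 10% mitochondrial UMIs. They held a median of 7010 and 25918 UMIs. Each cell was assigned to a type by lists of marker genes, and a type is written with "-like" because no annotation by the authors was used. The result was 11 groups with at least 50 cells, 8 in the dermis and 3 in the epidermis. Most of the dermal cells were macrophage-like (1217), monocyte-like (1084) or neutrophil-like (636), followed by 333 fibroblast-like, 283 T cell-like, 243 basophil-like, 146 dendritic or Langerhans cell-like and 125 mast cell-like cells. The epidermis gave 3319 keratinocyte-like, 485 T cell-like (458 of them with a Trdc UMI) and 143 dendritic or Langerhans cell-like cells, of which 94.4% had a UMI of Cd207, the langerin gene. Between 8 of 17 and 12 of 12 of a group's own markers were detected in at least 25% of its cells. Leading genes of the dermal T cell-like cells were Il17f, Il22, Cxcr6, Il17a and Il23r, with none of the list's own markers in the top 10 although all 10 were detected. Fibroblasts lack CD45, on which dermal cells were sorted, and 25.5% of the fibroblast-like cells had a UMI of Ptprc, the CD45 gene. The libraries shared 30 barcodes among the cells kept, and 579 dermal and 107 epidermal cells stayed without a type.

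IL-17RA is the chain that most IL-17 family receptors share. It pairs with IL-17RC to bind IL-17A and IL-17F, with IL-17RE to bind IL-17C, and with IL-17RB to bind IL-25. A cell needs both chains of a pair to receive a cytokine through that pair. Ligand binding recruits Act1, the product of Traf3ip2, which links the receptor to TRAF proteins, NF-κB and control of mRNA stability. IκBζ, encoded by Nfkbiz, then works with NF-κB in the nucleus on antimicrobial and chemokine genes, while the RNase Regnase-1, encoded by Zc3h12a, degrades inflammatory mRNAs and limits the response. In psoriasis the keratinocyte is the best-known target of IL-17.

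The genes of both partner chains of Il17ra that matter most below lie side by side. In GRCm38, Il17re spans chr6:113458484-113470758 and Il17rc chr6:113471427-113483140, both on the plus strand with 668 bases between them. Il17ra lies farther along the same chromosome at chr6:120463247-120487559. The other members are at chr14:29996135-30008896 (Il17rb, minus strand), chr14:27038941-27107286 (Il17rd, plus strand), chr10:39612934-39655307 (Traf3ip2, plus strand), chr16:55811375-55838899 (Nfkbiz, minus strand) and chr4:125118423-125127840 (Zc3h12a, minus strand). The promoters of the neighbouring pair are printed because these genes follow each other on the chromosome, and both were detected in keratinocyte-like cells while Il17re was also found in dermal T cell-like and Il17rc in fibroblast-like cells. They are RefSeq sequences of GRCm38.p6 at chr6:113458521-113458820 and chr6:113471205-113471504, plus strand, with capitals for matches on either strand to AP-1 (TGANTCA), κB (GGG, any 5 bases, then CC) and GC box (GGGCGG) letters.
Il17re: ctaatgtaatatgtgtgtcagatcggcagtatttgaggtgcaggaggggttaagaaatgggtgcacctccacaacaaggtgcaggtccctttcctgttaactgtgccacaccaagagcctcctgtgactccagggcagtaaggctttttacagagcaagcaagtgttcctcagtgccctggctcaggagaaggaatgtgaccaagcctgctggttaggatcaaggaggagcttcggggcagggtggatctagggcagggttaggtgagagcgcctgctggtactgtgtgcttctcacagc
Il17rc: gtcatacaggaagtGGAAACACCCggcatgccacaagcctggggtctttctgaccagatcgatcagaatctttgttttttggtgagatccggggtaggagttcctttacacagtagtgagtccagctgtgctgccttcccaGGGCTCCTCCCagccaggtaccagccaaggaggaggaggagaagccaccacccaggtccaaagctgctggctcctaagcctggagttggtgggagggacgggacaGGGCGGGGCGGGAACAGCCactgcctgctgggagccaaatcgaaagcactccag
The Il17rc window begins in the interval between the genes and holds 4 κB and 2 GC box matches, of which the last κB match overlaps a GC box, and no AP-1 match. The Il17re window holds 0 matches to each of the 3. It lies wholly inside the gene span given above, from 113458521 against a gene start of 113458484. The bases before that start were therefore not searched. Among 32851 promoters of this length, 7.81% hold the AP-1 letters, 50.8% the κB letters and 35.7% the GC box letters, so the matches are common ones.

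Levels are given as CPM, the UMIs of a gene per 1000000 UMIs of all genes in a group, with 95% intervals that cover counting error only, not the spread between cells, animals or libraries. With 1 library per tissue there is no replicate and no test, and a difference between dermal and epidermal groups cannot be told apart from a difference between the libraries.

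Il17ra, the shared chain, was detected in all 11 groups and was highest in neutrophils. The neutrophil-like cells held 103 CPM (interval 91.5 to 115, 300 UMIs), set apart from the next group. Monocyte-like cells followed with 51.4 CPM (46.9 to 56.2) and basophil-like cells with 46.1 CPM (34.2 to 60.7). Below these lay 6 groups with overlapping neighbouring intervals, from the epidermal dendritic or Langerhans cell-like cells at 37.0 CPM (27.2 to 49.2), fibroblast-like cells at 34.4 CPM (28.8 to 40.7) and epidermal T cell-like cells at 33.4 CPM (24.2 to 44.8) down to dermal dendritic cell-like cells at 32.5 CPM, macrophage-like cells at 26.0 CPM and dermal T cell-like cells at 25.2 CPM. The mast cell-like cells gave 25.1 CPM from only 4 UMIs, since their median depth was 855 UMIs.

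Keratinocyte-like cells had the lowest Il17ra level of the 11 groups, 6.81 CPM (6.31 to 7.34, 691 UMIs). Against neutrophil-like cells, the share of cells with an Il17ra UMI was also lower but differed less, and both groups were of unequal depth. It was 18.4% in the keratinocyte-like cells, whose median depth was 31060 UMIs, and 33.2% in the neutrophil-like cells, whose median depth was 3580 UMIs. With every cell thinned to 1000 UMIs, and the 142 keratinocyte-like and 32 neutrophil-like cells below that depth left out, the shares were 0.818% (0.535 to 1.20) and 9.60% (7.37 to 12.2). By the unthinned share keratinocyte-like cells were not the lowest group. Among epidermal T cell-like cells, of median depth 2372 UMIs, 41 of 485 had an Il17ra UMI.

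Il17rc, the chain that completes the receptor for IL-17A and IL-17F, was highest in the group with the least Il17ra. It reached 65.8 CPM (64.2 to 67.4, 6672 UMIs) in keratinocyte-like cells, where 74.0% of the cells had a UMI and 6.55% (5.71 to 7.46) did after thinning. Fibroblast-like cells came next with 17.3 CPM (13.4 to 21.9, 68 UMIs), found in 17.4% of the cells. The keratinocyte-like cells held 99.2% of the epidermal Il17rc UMIs, and the fibroblast-like cells 62.4% of the dermal ones. Of the UMIs of all genes, keratinocyte-like cells held 101419489 of 105033363 in the epidermis. Fibroblast-like cells held 3927699 of 40392866 in the dermis. The epidermal share thus lies near the group's share of all UMIs, and was 85.4% even for Il17ra.

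As a pool, dermal leukocytes were almost without Il17rc. The 3766 gated ones held 18 UMIs together, which is 0.579 CPM (0.343 to 0.915). These were 8 UMIs in monocyte-like cells, 7 in macrophage-like cells and 1 each in T cell-like, basophil-like and dendritic or Langerhans cell-like cells. Mast cell-like cells had 0 UMIs, but at their low depth the interval reached 23.1 CPM. A level below the 17.3 CPM of fibroblast-like cells was therefore not shown for them. Neutrophil-like cells, with the most Il17ra, had 0 Il17rc UMIs in 636 cells, which allows a level of up to 1.03 CPM and a share of up to 0.472% of cells with a UMI. Smaller dermal groups outside the blood lineage did hold the transcript, with 7 UMIs in 25 Schwann cell-like cells (63.7 CPM, 25.6 to 131), 7 UMIs in 37 endothelial cell-like cells (11.7 CPM, 4.71 to 24.1) and 2 UMIs in 5 pericyte or smooth muscle-like cells.

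**Figure D1:**
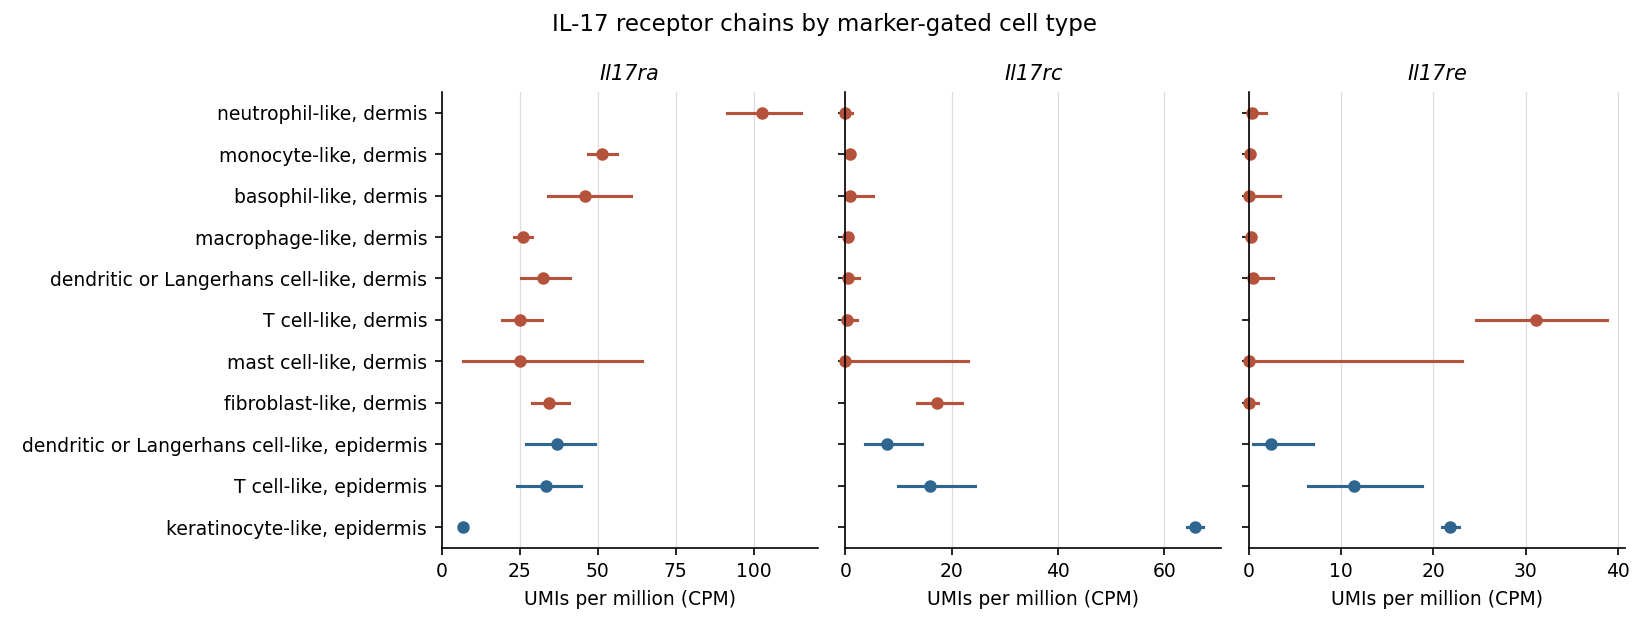
Levels of Il17ra, Il17rc and Il17re in CPM (linear axes, 1 scale per gene) for the 11 groups with at least 50 cells. Points are levels and lines 95% counting intervals, red for the dermal and blue for the epidermal library. Il17ra peaks in neutrophil-like cells at 103 CPM and is lowest in keratinocyte-like cells at 6.81 CPM, where Il17rc peaks at 65.8 CPM, and Il17re is high in dermal T cell-like and keratinocyte-like cells.

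Epidermal leukocytes did carry Il17rc UMIs, at the level that their share of keratin transcripts would give. Epidermal T cell-like cells had 15.9 CPM (9.85 to 24.3, 21 UMIs) and epidermal dendritic or Langerhans cell-like cells 7.87 CPM (3.77 to 14.5, 10 UMIs). The same cells held the keratin transcripts Krt5 and Krt14 at 23.0% and 15.3% of the keratinocyte-like level, on average over both genes. Both genes are markers of the keratinocyte gate, so cells rich in them were less likely to be called leukocytes. The keratin shares may therefore be too low. At those shares, the keratinocyte-like Il17rc level would give 15.1 and 10.1 CPM, inside both measured intervals, so the Il17rc UMIs of epidermal leukocytes were not above that background at this depth. Whether the keratin transcripts came from free RNA or from doublets was not tested.

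Il17ra in these cells stood far above that background. The keratin shares would give 1.57 CPM in the T cell-like and 1.05 CPM in the dendritic or Langerhans cell-like cells, against 33.4 and 37.0 CPM measured. In the dermis the share was small, since leukocytes held collagen transcripts (Col1a1 and Col3a1) at 1.47% of the fibroblast-like level, which would give 0.254 CPM of Il17rc. Both collagen genes are likewise markers of the fibroblast gate, so this share may also be too low. In the other direction, fibroblast-like cells held the leukocyte transcripts Tyrobp and Laptm5 at 20.4% of the leukocyte level. That share would give 8.59 CPM of Il17ra in fibroblast-like cells, below the 34.4 CPM measured, and 0.118 CPM of Il17rc. It would also give 31.2 CPM of Nfkbiz and 8.53 CPM of Zc3h12a there, against 86.6 and 39.2 CPM measured.

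**Figure D2:**
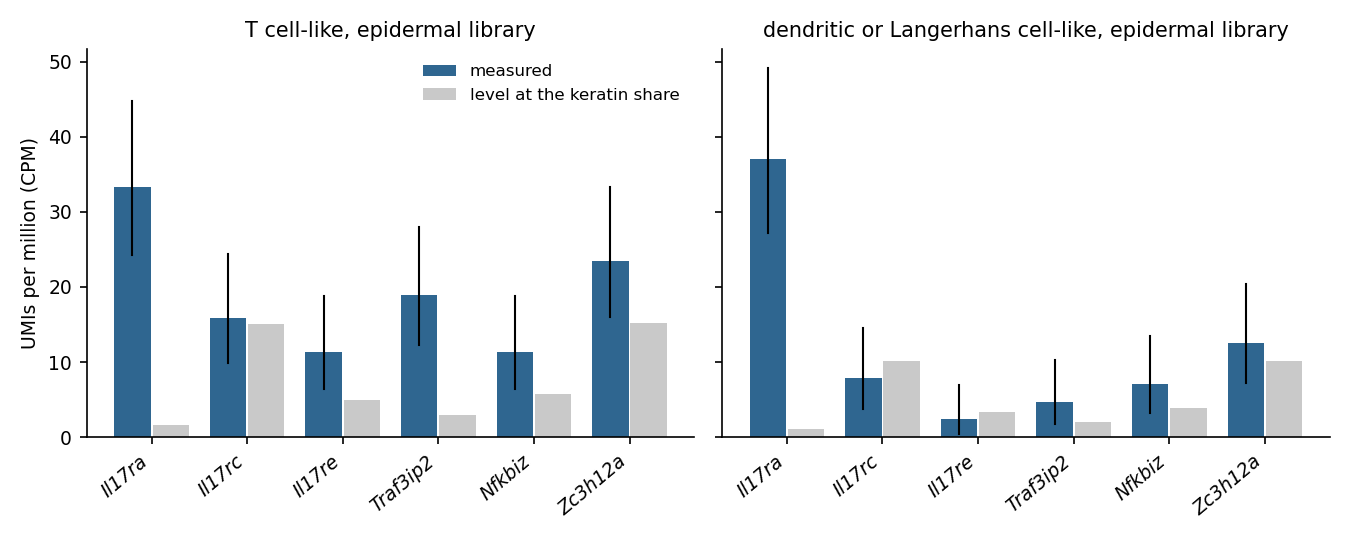
Measured levels (blue bars, lines are 95% counting intervals) and the levels that the Krt5 and Krt14 share would give (grey bars) for 6 members in epidermal T cell-like and dendritic or Langerhans cell-like cells, in CPM. Il17rc meets its grey bar in both groups (15.9 against 15.1 CPM and 7.87 against 10.1 CPM), while Il17ra exceeds it (33.4 against 1.57 CPM and 37.0 against 1.05 CPM).

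The balance of both chains therefore differed between cell types, as Il17rc UMIs per Il17ra UMI show. The values are not corrected for transcript length or capture, so only their order over cell types can be read. Keratinocyte-like cells had 9.66 Il17rc UMIs per Il17ra UMI (8.93 to 10.5) and fibroblast-like cells 0.504 (0.371 to 0.679). Dermal leukocytes had 0.0138 (0.00814 to 0.0219), and no interval of these 3 groups overlapped another.

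Both transcripts were seen in the same cell in 513 keratinocyte-like cells (15.5%, 14.2 to 16.7), 18 fibroblast-like cells (5.41%, 3.23 to 8.41) and 9 dermal leukocytes (0.239%, 0.109 to 0.453). These shares are set by depth as well as by level. Fibroblast-like cells held leukocyte transcripts at 20.4% of the leukocyte level, and the part of leukocyte RNA in their double detection was not tested. After thinning to 1000 UMIs, 0 of 3177 keratinocyte-like, 0 of 324 fibroblast-like and 0 of 3617 leukocyte cells held both, so at equal depth a difference in double detection was not detectable. Thinning to 2000 UMIs left 6, 1 and 0 such cells.

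Within the epidermis, Il17rc was higher in spinous than in basal keratinocytes. Spinous-like cells, which have left the basal layer and begun to differentiate, held 106 CPM (98.7 to 115, 706 UMIs in 265 cells) and basal-like cells 62.4 CPM (60.8 to 64.1, 5442 UMIs in 2643 cells). The ratio was 1.70 (1.57 to 1.84). Upper follicle-like cells had 44.9 CPM (36.4 to 54.7, 98 UMIs in 85 cells), lower than basal-like cells at a ratio of 0.719 (0.583 to 0.878).

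Il17ra did not follow Il17rc over these states, with 6.03 CPM (4.31 to 8.21) in spinous-like, 6.88 CPM (6.34 to 7.46) in basal-like and 5.04 CPM (2.52 to 9.02) in upper follicle-like cells, whose intervals overlapped. Spinous-like cells consequently had 17.7 Il17rc UMIs per Il17ra UMI (12.8 to 24.9), against 9.07 (8.34 to 9.88) in basal-like cells. Of the 8 members, Il17rb was past 2-fold higher in spinous-like cells, against 5.67% of 12825 genes, and rested on 5 UMIs with an interval of the ratio from 0.643 to 5.50, and the call ended without the richest cell of each group (1.76). No member was past 2-fold lower, against 12.8% of genes, but with every cell thinned to 1000 UMIs Il17re (0.469 from 0.866) and Nfkbiz (0.406 from 0.842) were. These thinned values have no interval, and the unthinned ratios rest on 126 and 140 spinous-like UMIs. The members' median log2 ratio was -0.04 and that of all genes tested -0.25. No cell passed the granular gate, so the outermost living layer is not described.

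Il17re, the chain that IL-17C needs, was highest in dermal T cells and keratinocytes. Dermal T cell-like cells had 31.2 CPM (24.7 to 38.8, 79 UMIs, 16.96% of the cells) and keratinocyte-like cells 21.8 CPM (20.9 to 22.7, 2213 UMIs, 42.6% of the cells), with intervals that stayed apart. Epidermal T cell-like cells followed with 11.4 CPM (6.36 to 18.8, 15 UMIs), above the 5.02 CPM that their keratin share, which may be too low, would give. Fibroblast-like cells had 0 UMIs in 333 cells, which allows up to 0.764 CPM. Outside the T cell-like cells, the dermal groups held 3 UMIs in macrophage-like cells and 1 each in monocyte-like, neutrophil-like and dendritic or Langerhans cell-like cells, and 0 in basophil-like and mast cell-like cells. At the low depth of the mast cell-like cells the interval reached 23.1 CPM. A level below the 21.8 CPM of keratinocyte-like cells was therefore not shown for them.

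Il17re was found in dermal T cells with and without a Trdc UMI. Dermal T cell-like cells with a Trdc UMI, the constant region of the δ chain, had 32.1 CPM (22.6 to 44.2, 37 UMIs in 100 cells). Those without had 30.4 CPM (21.9 to 41.1, 42 UMIs in 183 cells). The ratio was 1.05 (0.659 to 1.68), so no difference beyond those bounds was detectable. A cell without a Trdc UMI can still be a γδ T cell, since a missing UMI does not show a missing transcript. Cells with a Trdc UMI were deeper, at a median of 9758 against 5474 UMIs, and with every cell thinned to 1000 UMIs the ratio turned to 0.443. This thinned value rests on few UMIs and has no interval.

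Foxp3, the gene of the regulatory T cell factor, marked a further subset. The 45 cells with a Foxp3 and no Trdc UMI held 0 Il17re UMIs, which allows up to 10.2 CPM, and 7 Il17ra UMIs (23.8 CPM, 9.57 to 49.0). Their Zc3h12a level was 85.0 CPM (55.0 to 125, 25 UMIs), against 27.7 CPM (19.0 to 39.1) in the cells with Trdc, a ratio of 3.07 (1.74 to 5.34).

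T cells that carried Il17a or Il17f transcripts had the higher Il17re level in both libraries. In the dermis the 138 T cell-like cells with an Il17a or Il17f UMI had 37.2 CPM (28.6 to 47.6, 63 UMIs) and the 145 cells without had 19.0 CPM (10.9 to 30.9, 16 UMIs), a ratio of 1.96 (1.12 to 3.63). In the epidermis the 35 cells with such a UMI had 37.6 CPM (17.2 to 71.4, 9 UMIs) and the 450 without had 5.56 CPM (2.04 to 12.1, 6 UMIs), a ratio of 6.77 (2.15 to 23.1). The interval of the 450 cells without holds the 5.02 CPM that the keratin share of all epidermal T cell-like cells would give. Cells with the cytokine UMIs were also the deeper ones, with medians of 10178.5 against 4686 UMIs in the dermis and 6226 against 2331 in the epidermis, and the part of depth in this split was not tested. Both splits were made after the T cell values were known. Zc3h12a was lower in the dermal cells with the cytokine UMIs, at 25.4 against 54.7 CPM, a ratio of 0.465 (0.299 to 0.720). In the epidermis its ratio was 0.868 (0.260 to 2.30). How far the dermal difference overlaps with that of the Foxp3 cells was not tested. Il17rc, whose product pairs with IL-17RA to bind IL-17A and IL-17F, was at 1 UMI in the 138 dermal cells, which is 0.591 CPM with an interval up to 3.29.

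**Figure D3:**
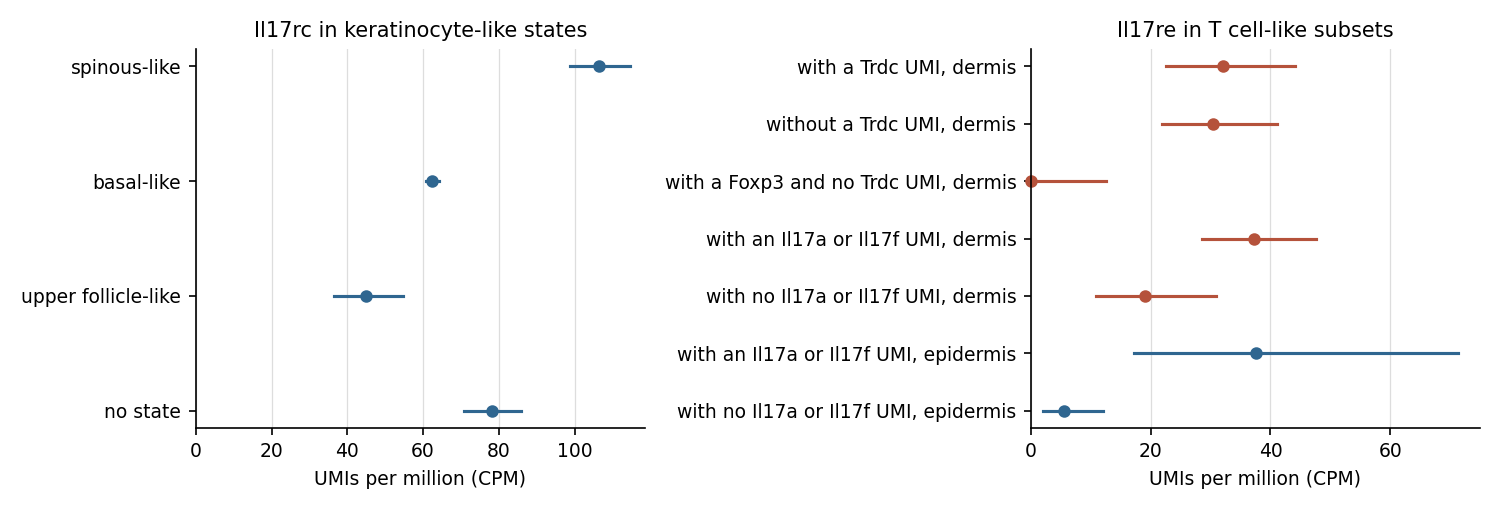
Il17rc in keratinocyte-like states (left) and Il17re in T cell-like subsets (right), in CPM with 95% counting intervals, red for the dermal and blue for the epidermal library. Il17rc is higher in spinous-like (106 CPM) than in basal-like cells (62.4 CPM), and Il17re is higher in T cell-like cells with an Il17a or Il17f UMI in both libraries (37.2 and 37.6 CPM), at 0 UMIs in those with Foxp3.

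Il17rb, the chain for IL-25, was rare, with 16 dermal and 40 epidermal UMIs in all kept cells. Dermal T cell-like cells held 8 of the dermal ones, 3.16 CPM (1.36 to 6.22), and 7 of these 8 came from cells without a Trdc UMI. Those cells held 1380646 of the 2535071 UMIs of all genes in dermal T cell-like cells. The ratio of cells with over cells without Trdc was 0.171 (0.00379 to 1.33), so a difference was not shown. Keratinocyte-like cells held 39 UMIs, 0.385 CPM (0.273 to 0.526). Basophil-like and mast cell-like cells, which take part in type 2 responses, had 0 UMIs in 243 and 125 cells. Both intervals reached above the 3.16 CPM of dermal T cell-like cells, that of mast cell-like cells to 23.1 CPM. A level below that of dermal T cell-like cells was therefore not shown for either group.

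Il17rd, a chain without a settled ligand of its own that is also known as Sef, an inhibitor of fibroblast growth factor signalling, was highest in stromal cells. It had 43 dermal and 35 epidermal UMIs in all. Fibroblast-like cells held 27 of the dermal UMIs, 6.87 CPM (4.53 to 10.0), and the 37 endothelial cell-like cells 6, or 10.0 CPM (3.68 to 21.9). Epidermal T cell-like cells had 5 UMIs, and their 3.79 CPM (1.23 to 8.84) overlapped the fibroblast-like interval. Keratinocyte-like cells held 28 UMIs, only 0.276 CPM (0.183 to 0.399), and dermal leukocytes 7 UMIs, 0.225 CPM (0.0905 to 0.464).

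Traf3ip2, which encodes the adaptor Act1, was present in every group. It was low in neutrophil-like, macrophage-like, monocyte-like and dermal dendritic or Langerhans cell-like cells. Mast cell-like cells gave 12.5 CPM (1.52 to 45.3) from only 2 UMIs. The highest levels of the other groups were 18.9 CPM (12.3 to 28.0) in epidermal T cell-like and 15.8 CPM (12.1 to 20.2) in fibroblast-like cells. Keratinocyte-like cells had 12.8 CPM (12.1 to 13.5) and dermal T cell-like cells 10.7 CPM (7.02 to 15.5), each interval overlapping the next. Basophil-like cells (5.53 CPM, 2.03 to 12.0) and epidermal dendritic or Langerhans cell-like cells (4.72 CPM, 1.73 to 10.3) had intervals that overlapped the dermal T cell-like one. Neutrophil-like cells had 3.77 CPM (1.88 to 6.74), macrophage-like cells 3.35 CPM (2.42 to 4.53), dermal dendritic or Langerhans cell-like cells 2.79 CPM (1.02 to 6.06) and monocyte-like cells 1.69 CPM (0.965 to 2.74). Monocyte-like cells thus had the second-highest Il17ra level and the lowest Traf3ip2 level. Their Il17ra interval overlapped the basophil-like one, and their Traf3ip2 interval that of dermal dendritic or Langerhans cell-like cells. The dermal T cell-like level was 3.18 times the macrophage-like one (1.88 to 5.27).

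Nfkbiz, the gene of IκBζ, was highest in granulocytes. Neutrophil-like cells held 406 CPM (384 to 430, 1186 UMIs) and basophil-like cells 362 CPM (327 to 400), with intervals that overlapped. Mast cell-like cells had 207 CPM (142 to 290) and monocyte-like cells 167 CPM (159 to 176), followed by dermal T cell-like cells at 102 CPM, macrophage-like cells at 90.3 CPM, fibroblast-like cells at 86.6 CPM and dermal dendritic or Langerhans cell-like cells at 59.0 CPM. All 3 epidermal groups were lower than each of the 8 dermal groups, with 25.0 CPM (24.1 to 26.0) in keratinocyte-like, 11.4 CPM (6.36 to 18.8) in T cell-like and 7.08 CPM (3.24 to 13.4) in dendritic or Langerhans cell-like cells. T cell-like cells differed most plainly, with 102 CPM in the dermal and 11.4 CPM in the epidermal library, where 259 and 15 UMIs were counted. The tissue, the T cell subset, the sort and the library all differ between these groups and cannot be told apart.

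Zc3h12a, the gene of Regnase-1, was high in granulocytes and also in keratinocytes. The levels were 93.2 CPM (82.5 to 105) in neutrophil-like, 77.4 CPM (61.7 to 95.8) in basophil-like and 66.3 CPM (64.7 to 67.9) in keratinocyte-like cells. Below these came monocyte-like cells at 49.7 CPM (45.3 to 54.4), fibroblast-like cells at 39.2 CPM (33.3 to 45.9) and dermal T cell-like cells at 35.1 CPM (28.2 to 43.2). Macrophage-like cells had 26.8 CPM (24.0 to 29.9), and both dendritic or Langerhans cell-like groups lay at the end of the order with 16.7 CPM in the dermis and 12.6 CPM in the epidermis. In the epidermal leukocytes the keratin share would give 15.2 CPM in T cell-like and 10.2 CPM in dendritic or Langerhans cell-like cells, against 23.5 CPM (15.97 to 33.4) and 12.6 CPM (7.20 to 20.4) measured.

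**Figure D4:**
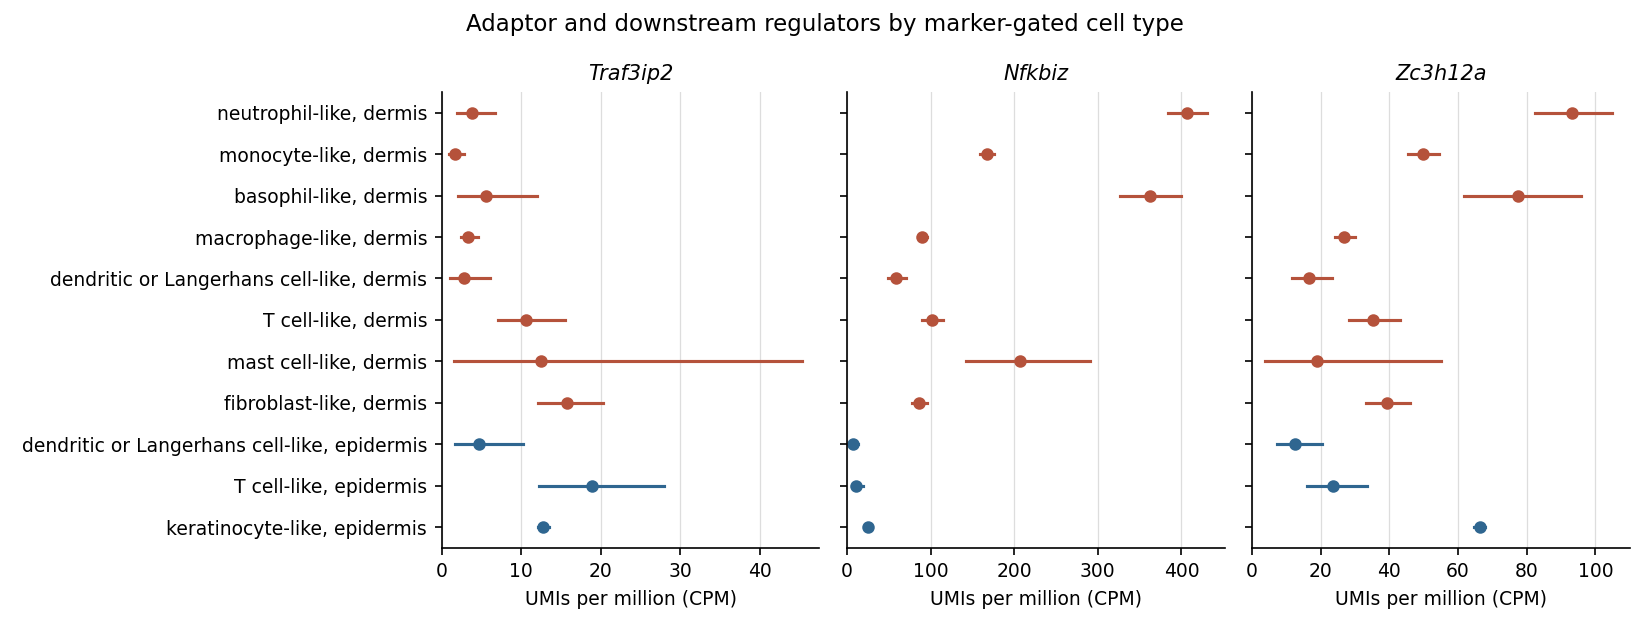
Levels of Traf3ip2, Nfkbiz and Zc3h12a in CPM (linear axes, 1 scale per gene) for the 11 groups, with 95% counting intervals, red for the dermal and blue for the epidermal library. Nfkbiz is highest in neutrophil-like (406 CPM) and basophil-like (362 CPM) cells, Zc3h12a is also high in keratinocyte-like cells (66.3 CPM), and Traf3ip2 is lowest in monocyte-like cells (1.69 CPM).

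Comparisons within a library keep the library constant. In the epidermis, keratinocyte-like cells were set against the 731 leukocytes for every gene with at least 20 UMIs over both groups, and a gene counted as called when the ratio passed 2-fold. Il17rc was 4.74 times as high in keratinocyte-like cells (3.50 to 6.59), Il17re 3.30 times (2.13 to 5.42) and Zc3h12a 3.29 times (2.56 to 4.31), so 3 of the 8 members were called higher against 16.9% of 13395 genes. Il17ra was 5.14-fold lower (4.15 to 6.31) and Il17rd 7.18-fold lower (2.43 to 17.7, 28 against 6 UMIs), so 2 members were called lower against 24.3% of genes. These ratios compare shares of all UMIs, and the median depths were 31060 and 2681 UMIs. The 3319 keratinocyte-like cells held 691 Il17ra UMIs and the 731 leukocytes 106, so the lower level did not mean fewer UMIs per cell. Nfkbiz had a ratio of 1.76 (1.30 to 2.44) and Traf3ip2 of 1.25 (0.876 to 1.85), and Il17rb had 39 UMIs against 0 and no call. The median log2 ratio was 0.57 over the members and -0.14 over all genes tested. The leukocytes together held keratins at 19.3% of the keratinocyte-like level, which would give 12.7 CPM of Il17rc, 4.21 CPM of Il17re and 12.8 CPM of Zc3h12a, against 13.9, 6.61 and 20.1 CPM measured. With types taken from clusters the Il17rc ratio was 3.08.

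In the dermis, fibroblast-like cells were set against the 3766 leukocytes. Il17rc was 29.9 times as high (17.6 to 53.4), Il17rd 30.5 times (12.97 to 83.0) and Traf3ip2 4.46 times (3.21 to 6.14), so 3 of 7 members with enough UMIs were called higher against 21.4% of 12935 genes. Il17re, at 0 UMIs against 85, was 3.58-fold lower with 3 counts in place of 0, the 1 member called lower against 16.2% of genes. By the exact interval it was at least 2.85-fold lower. Il17ra (0.818, 0.680 to 0.977), Nfkbiz (0.567, 0.506 to 0.633) and Zc3h12a (0.939, 0.789 to 1.11) were not called. The Traf3ip2 ratio, from 62 against 110 UMIs, was 3.82 to 4.89 in the other alternatives. It fell below 2-fold only when cells were thinned to 1000 UMIs (1.01, a value without an interval). Nfkbiz passed 2-fold lower when thinned (0.327) and as a mean of per-cell CPM (0.458). The median log2 ratio was -0.09 over the members and 0.10 over all genes tested. Fibroblasts and keratinocytes thus shared a high Il17rc level relative to the leukocytes of their library and differed in Il17re. For Il17re, 79 of the 85 dermal leukocyte UMIs came from T cell-like cells. Macrophage-like (0.240 CPM), monocyte-like (0.106 CPM) and neutrophil-like (0.343 CPM) levels lay inside the fibroblast-like interval of 0 to 0.939 CPM. A lower Il17re level in fibroblast-like cells than in these groups was not shown.

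**Figure D5:**
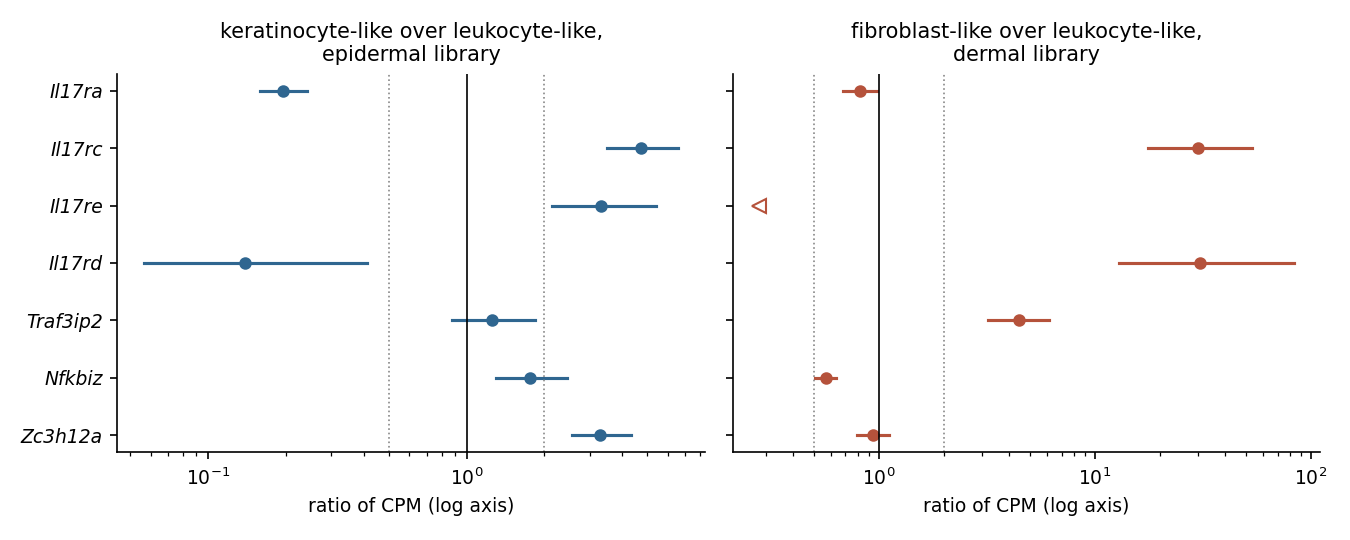
Ratio of levels (log axis) of 7 members in keratinocyte-like over leukocyte-like cells of the epidermal library (left, blue) and fibroblast-like over leukocyte-like cells of the dermal library (right, red). Points are ratios, lines 95% counting intervals, the solid line is 1, the dotted lines are 2-fold, and the open triangle is an upper bound for Il17re, which had 0 UMIs in fibroblast-like cells. Il17rc is to the right of 2-fold in both panels, at 4.74 and 29.9.

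Among dermal myeloid cells, 3 of the 4 members with enough UMIs were called higher in neutrophil-like than in macrophage-like cells, against 12.7% of 10831 genes. These were Il17ra at 3.96 times (3.37 to 4.65), Nfkbiz at 4.50 times (4.14 to 4.89) and Zc3h12a at 3.47 times (2.95 to 4.09), while Traf3ip2 had a ratio of 1.12 (0.522 to 2.22). None was called lower, against 38.3% of genes, although Traf3ip2 was at 0.458 with types taken from clusters. The median log2 ratio was 1.89 over the 4 members and -0.65 over all genes tested. Basophil-like cells also exceeded macrophage-like cells in Nfkbiz (4.01 times, 3.56 to 4.50), Zc3h12a (2.88 times, 2.24 to 3.67) and Il17ra (1.77 times, 1.29 to 2.40).

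Between dermal T cell-like cells with and without a Trdc UMI, 0 of 5 members with enough UMIs were called in either direction, against 2.52% of 7146 genes higher and 6.4% lower. The ratios ran from 0.671 (0.421 to 1.05) for Zc3h12a to 1.19 (0.923 to 1.53) for Nfkbiz, and their median log2 value was -0.28 against -0.10 over all genes tested. With every cell thinned to 1000 UMIs, 3 of the 5 passed 2-fold. Il17ra turned from 0.767 to 2.66, Zc3h12a went to 0.221 and Il17re to 0.443. The thinned values come from 100 and 177 cells and have no interval, and the part of depth in this comparison was not tested.

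Il17a and Il17f, the genes of the ligands for the pair of Il17ra and Il17rc, were highest in the T cells. Dermal T cell-like cells held 3157 UMIs of Il17a (1245 CPM) and 7357 of Il17f (2902 CPM), and epidermal ones 854 (647 CPM) and 1177 (892 CPM). Il17a was 1.66 times (1.55 to 1.78) and Il17f 1.85 times (1.76 to 1.94) as high in dermal T cell-like cells with a Trdc UMI as in those without. Il17c and Il25, the ligands for Il17re and Il17rb pairs, had 0 UMIs in each of the 11 groups, which allows at most 0.0296 CPM in the keratinocyte-like cells. Il17b was seen only in keratinocyte-like cells among the 11 groups, with 330 UMIs (3.25 CPM, 2.91 to 3.62). Il17d had 12 UMIs in fibroblast-like cells against 3 in dermal leukocytes.

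The other genes of the pathway were followed as lists. Of 29 signalling genes that act beside or after Act1, 0 of the 28 with enough UMIs were called higher and 6 lower in keratinocyte-like than in leukocyte cells, with a median log2 ratio of -0.41. Over all genes tested, 16.9% were higher and 24.3% lower with a median of -0.14. The abundant ones were not called, with ratios of 1.49 (1.42 to 1.56) for Hsp90aa1, a chaperone gene, 1.40 (1.31 to 1.49) for Nfkbia, the gene of the NF-κB inhibitor IκBα, and 1.71 for Srsf1, a splicing factor gene. In fibroblast-like cells 1 of 29 was called higher and 4 lower (all genes 21.4% and 16.2%), with a median of -0.31 against 0.10, among the lower ones Nfkbia (0.443) and Hsp90aa1 (0.447), while Cebpb (0.750) was not called. In neutrophil-like over macrophage-like cells 7 of 29 were called higher and 3 lower (all genes 12.7% and 38.3%), with a median of -0.10 against -0.65, where Nfkbia was 8.14 times and Cebpb 5.52 times as high and Hsp90aa1 (1.90) was not called. In spinous-like over basal-like cells 0 of 28 were higher and 1 lower (all genes 5.67% and 12.8%), and between the T cell-like subsets 0 of 22 higher and 2 lower (all genes 2.52% and 6.4%).

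A list of 26 genes known to answer IL-17 held antimicrobial proteins and chemokines among others. In keratinocyte-like over leukocyte cells 15 of 23 were called higher and 7 lower, against 16.9% and 24.3% of all genes, with a median log2 ratio of 1.56 against -0.14. S100a8 and S100a9, which encode the subunits of calprotectin, were 2.95 (2.91 to 3.003) and 3.41 (3.36 to 3.47) times as high, and Lcn2, the gene of the iron-binding lipocalin-2, 3.66 times (3.36 to 3.999). In fibroblast-like cells 7 of 18 were higher and 8 lower, against 21.4% and 16.2% of all genes. There Saa3, a serum amyloid A gene, was 16.97 times as high (16.8 to 17.2), and S100a8 (0.286) and S100a9 (0.289) were lower.

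In spinous-like over basal-like cells 5 of 23 response genes were called higher, 7 lower and 11 neither, against 5.67% higher and 12.8% lower of all genes. S100a8 (1.56, 1.55 to 1.57), S100a9 (1.73, 1.72 to 1.73) and Lcn2 (0.908, 0.878 to 0.939) were not called. In neutrophil-like over macrophage-like cells 11 of 17 were higher and 3 lower (all genes 12.7% and 38.3%), led by S100a8 at 56.5 times, S100a9 at 55.1 times and Cxcl2, a neutrophil-attracting chemokine gene, at 22.4 times, and between the T cell-like subsets 1 of 13 was higher and 1 lower (all genes 2.52% and 6.4%). Neutrophils store the products of S100a8, S100a9 and Lcn2, and the part of free RNA in the levels of these genes was not tested.

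The genes whose levels over the 11 groups were most like a member's were searched among 10848 genes with at least 300 UMIs, by Pearson correlation of log2(CPM + 10). This is a description over 11 points that share 2 libraries. For Il17rc they were Barx2 (r = 0.992), Notch3 (0.991) and Efna4 (0.989). Il17re was closest to Edaradd (0.963), A630089N07Rik (0.943) and Cdca7l (0.934). For Il17ra they were Fgd3 (0.907), Neu1 (0.897) and 1600014C10Rik (0.893), and for Traf3ip2 Ccdc127 (0.972), 1300002E11Rik (0.952) and Phtf1 (0.946). Nfkbiz was closest to Dusp1 (0.984), an early response gene, then Gla (0.963) and Arl5b (0.961), and Zc3h12a to Sephs2 (0.890), Mafg (0.871) and Etf1 (0.863). Il17rb and Il17rd had too few UMIs for this search. Between members, r was -0.62 for Il17ra with Il17rc, 0.48 for Il17rc with its neighbour Il17re and 0.59 for Nfkbiz with Zc3h12a.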

How the data were processed

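The deposited matrices hold raw UMI counts per gene and cell, made by the authors with CellRanger (version 3.0.2 in the matrix header) and not normalized. The submitters' processing notes name the build mm10. Kept cells had 200 genes or more and no more than 10% of UMIs from mitochondrial genes. A cell took the type whose marker list had the highest mean of log2(1 + UMIs per 10000), each marker scaled to its 95th percentile, if at least 3 of the markers were detected and the score led the next type by 0.05. Keratinocyte states were gated likewise. The members, lists and alternatives were chosen with earlier results of these data known. The scaled score, the lead and the joint dendritic and Langerhans list were set after 3 versions of the gate and the members' levels under earlier versions had been seen, as were the collagen, Tyrobp and Laptm5 shares and the splits of T cells by Foxp3, Il17a or Il17f.

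UMIs were summed per type. Levels carry exact Poisson, shares Clopper-Pearson and ratios exact conditional intervals at 95%, for counting error only. UMIs of 1 cell are separate molecules, but cells are not replicates. The limits that a count of 0 allows, and fold values against 0, are set by 3 counts unless an interval is named. Doublets were not removed in the main analysis, and Scrublet in scanpy 1.11.5 served an alternative. Cells had been sorted to exclude doublets, and the paper also removed those that software predicted, so some may remain here. Within each list the 3 genes with most UMIs in the higher group were named. Other ligands were named after their values were seen. Il36a and Il36g were matched through their older symbols. Positions are from GENCODE M21, where 30934 of 31053 identifiers were found, and promoters were given for 5 of the 8 members. The ratio calculation was tested on simulated data. The scripts ran in Python 3.11.15 with scipy 1.17.1, pandas 2.3.3, numpy 2.4.6 and matplotlib 3.10.9. The planned comparison of keratinocytes between the libraries was not made, because 1 dermal cell passed that gate.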

Additional observations from a re-analysis of the deposited data

How the results depend on the processing

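No paired analysis was possible because the dermis and the epidermis had 1 library each. Filters at 5% mitochondrial UMIs or 5000 genes, removal of top doublet scores, a gate with 4 markers, types from clusters, means of per-cell CPM, omission of the richest cell, thinning to 1000 UMIs and, added after seeing the data, a gate lead of 0.08 were tried. Of 87 such values for the leading results, 74 stayed within the counting interval and 13 left it, and no called ratio among them changed direction. Of 197 values for the other members 21 left it, among them Traf3ip2 in keratinocyte-like over leukocyte cells, which turned from 1.25 to 0.746 when thinned. The epidermal keratinocyte over leukocyte ratio of Il17ra moved to 0.254 when thinned, and that of Il17rc to 3.08 with types from clusters. The fibroblast over leukocyte ratio of Il17ra was 0.535 as a mean of per-cell CPM. Thinned, the spinous over basal ratio of Il17rc was 1.88, the neutrophil over macrophage ratio of Il17ra 3.15 and the ratio of Il17re between T cells with and without Trdc 0.443, the last on few UMIs. The share of keratinocyte-like cells with both Il17ra and Il17rc was 11.6% with at most 5000 genes, 0% at 1000 and 0.193% at 2000 UMIs. For fibroblast-like cells it was 0% and 0.316%, and for dermal leukocytes 0% at both depths. So few cells held both transcripts after thinning that these shares cannot be compared at equal depth. The cause of the shifts was not tested.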
